A study of Mus musculus with 8 samples.

Results

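The 38 genes described here encode postsynaptic scaffolds and synaptic adhesion proteins: 19 build or regulate the protein lattice behind glutamate receptors, and 19 are membrane proteins that hold synaptic partners together. A gene was included when a probe set, the group of short DNA probes that an array reports as 1 value, carried that gene's symbol alone; where a gene had several, the one of highest mean over all arrays was used. All 38 were measured, among 22180 named genes. Hippocampal neurons from C57BL/6J mouse embryos, an inbred laboratory strain, were prepared at E18.5, late in gestation, and grown for 11 days in vitro in medium that was partly renewed with AraC, a drug that kills dividing cells. In 4 cultures the neurons were depolarised with 55 mM KCl for 4 h, and 4 cultures were left untreated. Each array had its own mouse number, so the p-values measure the spread between these 8 arrays, whose number limits the precision. The values are deposited log2 probe set values from whole-transcript arrays of total RNA from whole cultures, in which fewer cells of a type and less RNA per cell cannot be told apart.

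A glutamate synapse is joined across its cleft by adhesion proteins. Neurexins on the axon side bind neuroligins and the leucine-rich repeat proteins of the Lrrtm family on the dendrite side, Slitrk proteins bind receptor tyrosine phosphatases, and Flrt proteins bind latrophilins. Behind the dendritic membrane, Dlg proteins hold receptors and adhesion proteins by their PDZ domains, Dlgap proteins link Dlg to Shank, and Shank is joined to Homer, which reaches group I metabotropic glutamate receptors. Raised potassium depolarises neurons and opens calcium channels, and transcription of many synaptic genes is known to respond to such activity.

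The labelled cell type was checked against markers. Mean log2 values of 11 neuron markers lay between 9.04 and 9.85 on every array, and those of 7 astrocyte markers between 8.47 and 9.51, so the cultures also held astrocyte transcripts. Single markers varied widely, with means over the arrays from 5.15 to 12.59 for neurons and from 4.66 to 11.24 for astrocytes. Microglial markers (6 genes, 4.22 to 4.56), oligodendrocyte lineage markers (6 genes, 4.87 to 5.29) and vascular and meningeal markers (7 genes, 4.47 to 5.21) lay nearer to the array medians of 4.44 to 4.48, although single markers such as Olig1 (7.29) and Kdr (6.73) were higher. None of these markers passed the test between the groups without the block; with it, Gad2, which makes GABA, was lower after KCl (log2 change -0.49, adjusted p = 0.0458, limma), while Gad1, the other enzyme of that step, had a log2 difference of 1.08 (adjusted p = 0.353 without and 0.0765 with the block). Both arrays numbered 1 stood apart from the other 6, with scores of -48.6 and -43.2 on a first principal component that took 36.6% of the variance. Across all genes, deviations from group means correlated at 0.64, 0.41 and 0.37 for arrays numbered 1, 3 and 4. They correlated at 0.23 for those numbered 2, where arrays of unlike number reached 0.3. Across scaffold and adhesion genes the correlations were 0.59, 0.16, 0.24 and 0.18 for numbers 1 to 4, where arrays of unlike number reached 0.41. In these genes only number 1 stood above arrays of unlike number. The main tests are also given with the replicate number as a block.

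Among the 38 genes, 1 rose after KCl and none fell at an adjusted p under 0.05 (limma, Benjamini-Hochberg over 22180 genes), or 2.63%. The gene was the adhesion protein Lrrtm2, and none of the 19 scaffold genes passed. Over all genes 2.36% passed, 1.34% higher and 1.02% lower, and 4.46% of the genes brighter than the median gene did, so the share among the 38 was near or below the background. With the replicate number as a block, 3 of the 38 genes (7.89%) passed, where 4.44% of all genes and 8.37% of brighter genes did. They were the adhesion genes Lrrtm2 and Amigo3, both higher, and Slitrk3, lower. That is 15.8% of the 19 adhesion genes, and none of the 19 scaffolds passed. At an unadjusted p under 0.05, 8 adhesion genes (4 higher, 4 lower) and 1 scaffold (higher) were counted. Together these are 23.7% of the 38, against 13.0% of all genes and 21.1% of the genes brighter than the median gene, a group to which 37 of the 38 belong.

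Overlap between the groups was counted next. In 6 of the 38 genes (15.8%) no KCl array lay within the range of the untreated arrays, against 8.16% of all genes and 12.4% of the genes brighter than the median gene. All 6 were adhesion genes, 31.6% of that class: Lrrtm2, Flrt3 and Amigo3 were higher after KCl in every array, and Slitrk3, Lingo1 and Nlgn3 lower. The difference between the 2 classes was not tested. Median log2 changes were -0.04 for scaffolds and -0.05 for adhesion genes, beside -0.01 for all genes and -0.05 for the brighter ones. The spread of changes was wider among adhesion genes, with a range of -1.16 to 1.02 and a median absolute change of 0.28, than among scaffolds, with a range of -0.48 to 0.47 and a median absolute change of 0.16. That median was 0.21 over the brighter genes and 0.13 over 49 further adhesion genes outside the 38. Among those 49, groups did not overlap in 1 (2.04%). The 38 genes were chosen with earlier results of these data known, so the wider spread is no test of adhesion genes as a class.

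**Figure D1:**
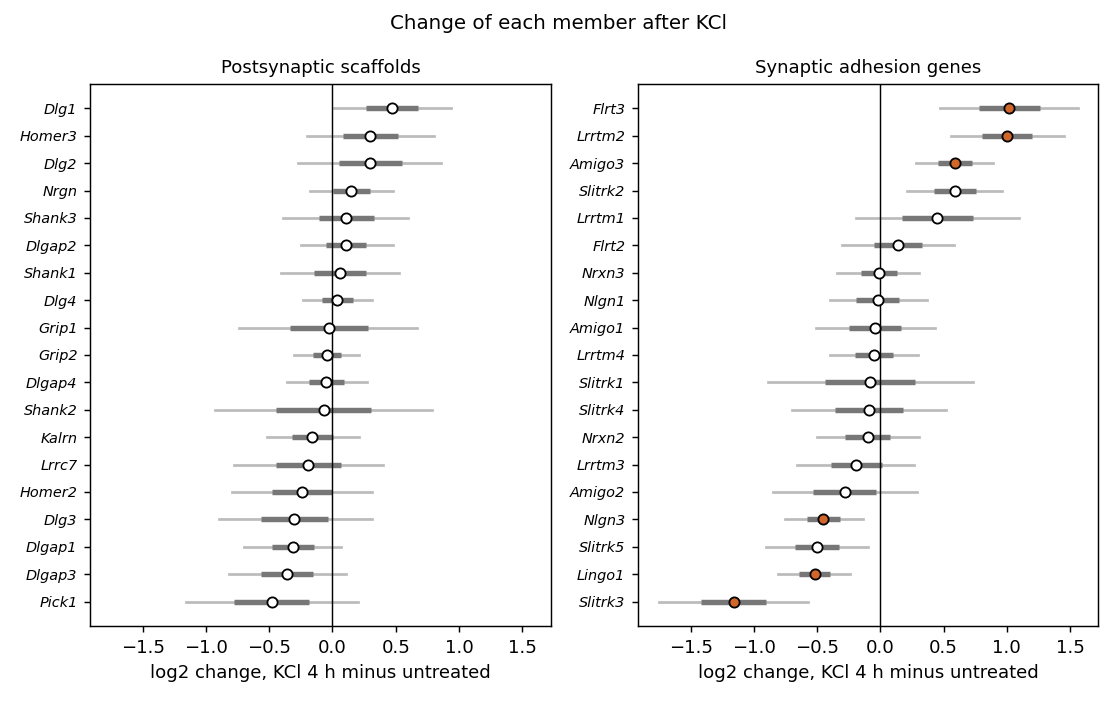
Log2 change of each of the 38 genes after 4 h of KCl (KCl minus untreated, horizontal axis), with the moderated standard error as a thick bar and the 95% confidence interval as a thin bar. Filled orange points mark the 6 genes whose groups did not overlap, all of them adhesion genes; scaffold estimates lie between -0.48 and 0.47.

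Promoter sequence is shown for 4 of the 6 genes whose groups did not overlap, all but Lrrtm2 and Nlgn3, and for Slitrk2, the one gene of the 31 searched with a full cAMP response element. The stretches hold the 220 bases before an annotated transcription start, 5′ to 3′ on the gene's strand, from RefSeq on GRCm38.p6, and capitals mark a motif.
Flrt3, chr2:140671477-140671696, minus strand: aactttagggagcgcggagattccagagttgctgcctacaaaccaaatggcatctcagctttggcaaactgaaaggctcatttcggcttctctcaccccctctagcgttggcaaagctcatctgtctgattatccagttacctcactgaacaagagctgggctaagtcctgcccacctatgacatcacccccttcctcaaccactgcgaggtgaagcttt
Slitrk3, chr3:73057067-73057286, minus strand: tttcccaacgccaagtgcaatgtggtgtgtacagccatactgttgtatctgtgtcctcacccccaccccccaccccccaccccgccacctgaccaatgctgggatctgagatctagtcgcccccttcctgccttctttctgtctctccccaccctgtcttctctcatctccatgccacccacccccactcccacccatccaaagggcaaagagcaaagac
Amigo3, chr9:108052939-108053158, plus strand: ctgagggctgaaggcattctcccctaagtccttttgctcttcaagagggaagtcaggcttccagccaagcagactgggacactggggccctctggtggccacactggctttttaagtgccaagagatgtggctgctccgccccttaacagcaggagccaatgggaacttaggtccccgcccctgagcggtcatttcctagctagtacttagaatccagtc
Lingo1, chr9:56635649-56635868, minus strand: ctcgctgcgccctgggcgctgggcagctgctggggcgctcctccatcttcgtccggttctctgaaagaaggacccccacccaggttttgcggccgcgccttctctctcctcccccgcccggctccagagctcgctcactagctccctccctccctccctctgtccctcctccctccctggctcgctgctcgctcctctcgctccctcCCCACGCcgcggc
Slitrk2, chrX:66652939-66653158, plus strand: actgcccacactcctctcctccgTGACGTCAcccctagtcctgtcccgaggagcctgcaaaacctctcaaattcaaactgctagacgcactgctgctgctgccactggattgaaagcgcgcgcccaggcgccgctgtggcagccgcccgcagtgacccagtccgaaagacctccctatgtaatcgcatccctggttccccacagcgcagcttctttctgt

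Windows of 250 bases before the start were available for 31 of the 38 genes, 50 windows in all, and 5 motifs were searched on both strands. No window was found for the other genes, Lrrtm2 and Nlgn3 among them, so those were not searched. TGACGTCA, the full element bound by CREB, stood in 1.5% of 32851 windows and, among the genes searched, in Slitrk2 alone. There it begins 197 bases before the start of the window shown. Its half-site TGACG, which the full element contains, was in 17.8% of all windows and in windows of Dlg3, Dlg4, Grip1 and Slitrk2. TGANTCA, the AP-1 motif, was in 6.7% of all windows and in a window of Nrxn3. The core bound by Npas4, TCGTG, was in 13.3% of all windows and in windows of Dlgap1, Homer2, Lingo1, Nrxn3 and Slitrk3. In Slitrk3 it lay upstream of the bases printed, and in Lingo1 in the window of another start, which is not printed. GCGTGGG, the Egr motif, was in 4.3% of all windows and in windows of Dlgap4, Lingo1, Shank3 and Slitrk5; in Lingo1 it appears in the printed stretch as its reverse complement. The windows of Flrt3 and Amigo3 held none of these letters. These matches describe the sequence and say nothing about binding.

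The Lrrtm proteins are postsynaptic partners of neurexins that recruit glutamate receptors. Lrrtm2 stood at 8.18, 8.63, 8.27 and 8.51 in untreated arrays 1 to 4 and at 8.93, 9.86, 9.34 and 9.47 in KCl arrays 1 to 4. Every KCl array was higher than every untreated one, and the array numbered 1 was the lowest of each group. The mean went from 8.40 ± 0.209 to 9.40 ± 0.382 (SD, n = 4 each), a log2 change of 1.00 (SE 0.196, 95% interval 0.56 to 1.45), or 2.0-fold. The adjusted p was 0.0387 without the block, 0.00872 with it (limma) and 0.0281 without both arrays numbered 1. With single arrays left out, the log2 change stayed between 0.85 and 1.16, while the adjusted p ranged from 0.0184 to 0.112 and passed only without KCl replicate 1.

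In the RefSeq table Lrrtm2 lies inside the catenin gene Ctnna1. The mean of Ctnna1 was 8.10 ± 0.886 without KCl and 8.51 ± 0.711 with it (SD, n = 4 each), which is 0.40 apart on the log2 scale (SE 0.481, adjusted p = 0.865 without and 0.174 with the block, limma). The other members of the family did not pass. Lrrtm1 was at 8.83, 9.39, 9.58 and 9.37 untreated and at 9.08, 9.48, 10.28 and 10.15 after KCl, higher in each same-numbered pair but with overlapping groups, and its log2 difference of 0.45 had an adjusted p of 0.612 without and 0.154 with the block (SE 0.282, limma). Lrrtm3, at -0.19 (SE 0.203, 95% interval -0.66 to 0.27), and Lrrtm4, which binds heparan sulphate proteoglycans, at -0.05 (SE 0.153, 95% interval -0.40 to 0.30), had intervals that did not reach the estimate of Lrrtm2. Differences between family members were not tested.

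**Figure D2:**
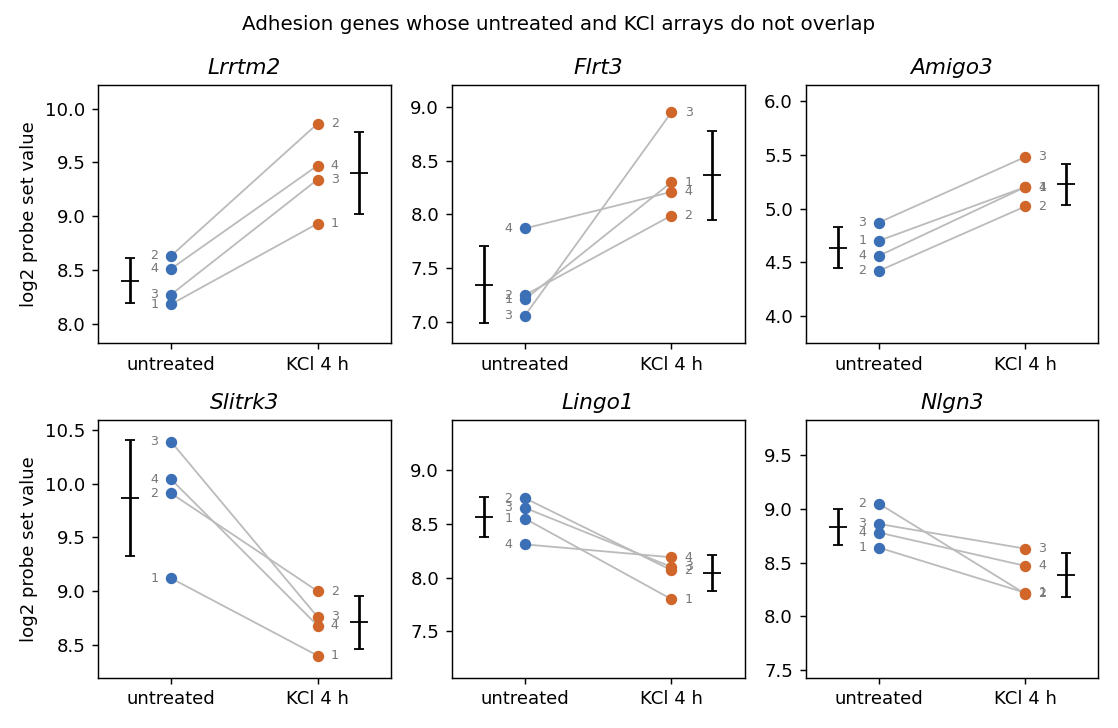
Log2 values on each of the 8 arrays for the 6 genes whose untreated (blue) and KCl (orange) groups did not overlap; lines join arrays of the same replicate number and black marks give the mean ± SD. Lrrtm2, Flrt3 and Amigo3 lie higher in all 4 KCl arrays, and Slitrk3, Lingo1 and Nlgn3 lower.

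Slitrk proteins promote synapse formation through presynaptic receptor tyrosine phosphatases, and Slitrk3 is known for its role at inhibitory synapses. Slitrk3 stood at 9.12, 9.91, 10.39 and 10.04 in untreated arrays 1 to 4 and at 8.40, 9.0, 8.76 and 8.68 in the KCl arrays. The groups did not overlap, and the untreated array numbered 1 was nearest to the KCl values. Its log2 difference of -1.16 (SE 0.258, 95% interval -1.75 to -0.57) was the largest in absolute size among the 38 genes, and 2.23-fold lower after KCl. The difference missed the threshold without the block (adjusted p = 0.0623) and passed with it (adjusted p = 0.0182, limma). Without both arrays numbered 1 it was -1.30 with an adjusted p of 0.0127, and with single arrays left out the adjusted p ran from 0.0102 without untreated replicate 1 to 0.156.

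Slitrk2 and Slitrk5, which have the same domain plan as Slitrk3, had unadjusted p-values below 0.05 and opposite signs. Slitrk2 was at 7.23, 7.71, 7.29 and 7.53 untreated and at 8.01, 7.65, 8.25 and 8.21 after KCl. Pair 2 ran against the others there, and the log2 difference was 0.59 (SE 0.164, adjusted p = 0.131, with the block 0.133; limma). Slitrk5 was at 9.27, 8.68, 9.07 and 9.06 untreated and at 8.29, 8.24, 8.79 and 8.78 after KCl. All 4 pairs were lower but the groups overlapped, and the log2 difference was -0.50 (SE 0.177, adjusted p = 0.247, with the block 0.117; limma). Slitrk1, at -0.08 (95% interval -0.89 to 0.73), and Slitrk4, at -0.09 (95% interval -0.70 to 0.52), had estimates near 0 with wide intervals.

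Flrt3, which binds latrophilins across the cleft and Unc5 receptors in axon guidance, had the largest positive estimate. It was at 7.21, 7.25, 7.06 and 7.87 untreated and at 8.30, 7.99, 8.95 and 8.21 after KCl. The groups were apart by the gap between 7.87 in untreated replicate 4 and 7.99 in KCl replicate 2. The log2 difference was 1.02 (SE 0.24, 95% interval 0.47 to 1.56), or 2.02-fold, with an adjusted p of 0.0742 without and 0.0709 with the block (limma), so it missed the threshold in both. It passed where only genes brighter than the median gene were tested (adjusted p = 0.0488). Its paralogue Flrt2 had a log2 difference of 0.14 (SE 0.192, adjusted p = 0.891, with the block 0.716; limma).

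Amigo3 and Lingo1 are leucine-rich repeat proteins that can each act as a co-receptor of the Nogo receptor, which limits axon growth. Amigo3 was at 4.70, 4.42, 4.87 and 4.56 untreated and at 5.2, 5.02, 5.48 and 5.2 after KCl. Its mean of 4.93 was the lowest of the adhesion genes and near that of the median gene, 4.76. The 4 pair differences lay close together, with a log2 difference of 0.59 (SE 0.133, 95% interval 0.28 to 0.89), or 1.5-fold. It missed the threshold without the block (adjusted p = 0.0664), passed with it (adjusted p = 0.0223, limma), and had an adjusted p of 0.141 without both arrays numbered 1. Lingo1 was at 8.55, 8.74, 8.65 and 8.31 untreated and at 7.80, 8.07, 8.10 and 8.19 after KCl. Here the groups were separated by the gap between 8.19 and 8.31, and the log2 difference of -0.52 (SE 0.126, 95% interval -0.81 to -0.24) had an adjusted p of 0.0794 without and 0.0812 with the block (limma). Amigo1, a partner of the potassium channel Kv2.1, had a log2 difference of -0.04 (SE 0.206), and Amigo2 of -0.28 (SE 0.25). Amigo3 lies within Rnf123 and Flrt3 within Macrod2 in the RefSeq table, and these host genes had log2 differences of -0.29 (adjusted p = 0.588, with the block 0.352) and -0.44 (adjusted p = 0.524, with the block 0.19; limma).

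Nlgn3, a neuroligin found at both excitatory and inhibitory synapses, was at 8.64, 9.05, 8.86 and 8.78 untreated and at 8.22, 8.21, 8.63 and 8.47 after KCl. The lowest untreated array lay just above the highest KCl array, at 8.64 against 8.63. The log2 difference was -0.45 (SE 0.133, 95% interval -0.75 to -0.14), with an adjusted p of 0.158 without and 0.119 with the block (limma). Nlgn1, the neuroligin of excitatory synapses, had a log2 difference of -0.02 (95% interval -0.40 to 0.37). The neurexins had differences of -0.10 for Nrxn2 (95% interval -0.50 to 0.31) and -0.01 for Nrxn3 (95% interval -0.34 to 0.31). The intervals of these 3 genes exclude a 2-fold change in either direction.

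Scaffold genes showed no call in any of the 19, and for 18 of them the 95% interval lay within a log2 change of ±1, that is, within 2-fold either way. Adhesion genes had such intervals in 15 of 19, all genes in 19374 of 22180, and genes brighter than the median gene in 8454 of 11090. The Dlg proteins bind receptors and adhesion proteins by PDZ domains, and Dlg4 encodes PSD-95, the main scaffold of excitatory synapses. Dlg4 was at 9.25, 9.75, 9.58 and 9.54 untreated and at 9.45, 9.68, 9.53 and 9.62 after KCl, a log2 difference of 0.04 (95% interval -0.23 to 0.31). Dlg1 had the smallest p of the class. It was at 8.51, 8.33, 8.01 and 7.59 untreated and at 8.84, 8.31, 8.58 and 8.6 after KCl; the groups overlapped, and the log2 difference of 0.47 (SE 0.205, 95% interval 0.01 to 0.94) had an adjusted p of 0.376 without and 0.206 with the block (limma). Dlg2 at 0.30 and Dlg3 at -0.30 ran in opposite directions in all 4 pairs each, with adjusted p-values of 0.765 and 0.791 without and 0.136 and 0.212 with the block (limma).

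The Dlgap proteins join Dlg to Shank. Dlgap1 was at 9.85, 10.20, 10.26 and 9.94 untreated and at 9.30, 9.86, 9.91 and 9.93 after KCl, lower in each pair with a difference of 0.01 in the fourth. Its log2 difference was -0.31 (SE 0.168, adjusted p = 0.52, with the block 0.214; limma). Dlgap3 was at 6.46, 7.15, 7.21 and 6.55 untreated and at 6.32, 6.28, 6.78 and 6.55 after KCl, a log2 difference of -0.36 (SE 0.203, adjusted p = 0.558, with the block 0.297; limma). Dlgap2 and Dlgap4 stood at 0.11 (95% interval -0.25 to 0.48) and -0.05 (95% interval -0.36 to 0.27). The Shank proteins, the deeper layer of the lattice, had log2 differences of 0.06 for Shank1 (95% interval -0.41 to 0.53), -0.07 for Shank2 (95% interval -0.93 to 0.79) and 0.11 for Shank3 (95% interval -0.39 to 0.60). Homer2 and Homer3, long Homer proteins that crosslink Shank and metabotropic receptors, had differences of -0.24 (95% interval -0.79 to 0.31) and 0.30 (95% interval -0.20 to 0.80).

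The remaining scaffold class genes act beside the lattice. Pick1, a PDZ protein in the trafficking of AMPA-type glutamate receptors, was at 5.73, 5.92, 6.38 and 6.33 untreated and at 5.75, 5.71, 6.21 and 4.76 after KCl. KCl replicate 4 was the lowest of all arrays. The log2 difference of -0.48 (SE 0.298, 95% interval -1.16 to 0.20) is the one scaffold difference whose interval reaches beyond 2-fold. Its adjusted p was 0.607 without and 0.426 with the block (limma). Without KCl replicate 4 the difference was -0.20. Grip1 and Grip2, which bind the same receptors, had differences of -0.03 (95% interval -0.74 to 0.67) and -0.04 (95% interval -0.30 to 0.21). Grip2 was dim, with a mean of 4.03 where the median gene was at 4.76, so its narrow interval is a weak limit on any change. In the RefSeq table Grip2 overlaps Ccdc174, which rose after KCl. The log2 change of Ccdc174 was 1.61 (SE 0.181, adjusted p = 0.00459 without and 0.0018 with the block, limma). Kalrn, which acts in dendritic spines, was at -0.16 (95% interval -0.52 to 0.21), and Lrrc7, the densin that binds CaMKII, at -0.19 (95% interval -0.78 to 0.40). Nrgn, which binds calmodulin at rest, was at 0.15 (95% interval -0.18 to 0.48).

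Scaffold values differed far more between replicate numbers than between the groups. Of a scaffold gene's sum of squares over the 8 arrays, the median share that lay between replicate numbers was 81.1% and the share between untreated and KCl was 11.4%. The shares were 50.4% and 13.8% for adhesion genes and 46.8% and 10.7% for all genes. For genes brighter than the median gene they were 50.6% and 13.6%, close to those of adhesion genes. Of the 7 degrees of freedom, 3 belong to the numbers and 1 to the groups, so the shares are not on an equal footing. The share between numbers was the larger in 18 of 19 scaffolds, Dlg1 being the exception, and in 11 of 19 adhesion genes. It was the larger in 16969 of all 22180 genes and in 8023 of the 11090 brighter genes. The other 8 adhesion genes were the 6 whose groups did not overlap, with Slitrk2 and Slitrk5. Separate groups by themselves raise the share between groups, so for those 6 this is not a further result.

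**Figure D3:**
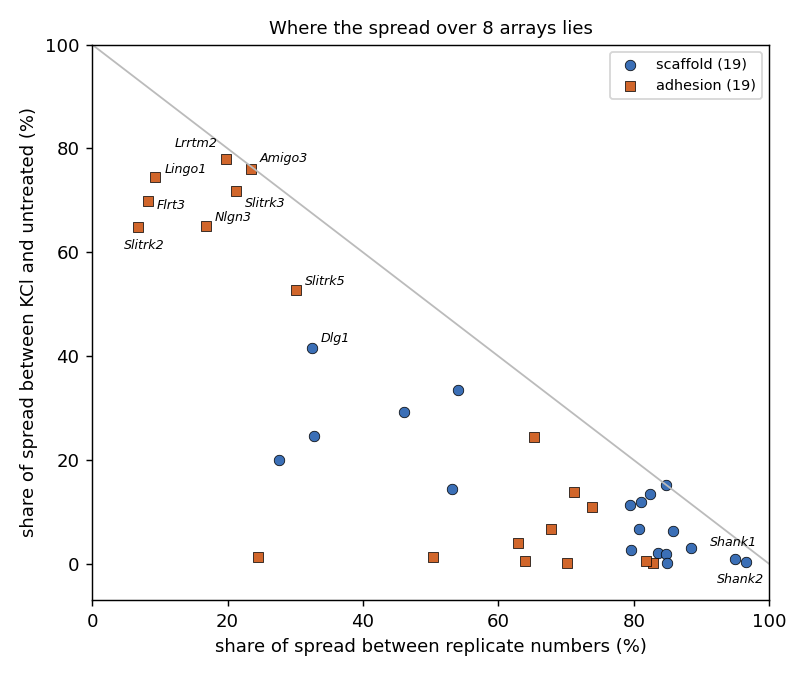
Share of each gene's sum of squares over the 8 arrays that lies between replicate numbers (horizontal axis, percent) and between untreated and KCl groups (vertical axis, percent), for 19 scaffold and 19 adhesion genes. Scaffolds crowd at the right with a median of 81.1% between numbers, while Lrrtm2 and the other genes with separate groups lie at the upper left.

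The arrays numbered 1 were often the lowest. In 28 of the 38 genes (73.7%, 14 in each class) the mean of both arrays numbered 1 was the lowest of the 4 numbers, against 31.0% of all genes and 35.7% of brighter genes. Shank1, with 95% of its sum of squares between numbers, was at 9.24 and 9.19 in the untreated and KCl arrays numbered 1 and between 9.47 and 9.92 in the other 6. Slitrk1 was at 7.53 and 8.10 there and between 8.55 and 9.15 elsewhere. Shank2 ran the other way, with a mean of 7.63 in the arrays numbered 1 and of 6.59, 6.41 and 6.28 in those numbered 2, 3 and 4, which is 96.6% of its sum of squares. Dlg1 and Amigo2 were also highest in the arrays numbered 1.

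Marker levels moved with the replicate number. The mean log2 value of the 19 scaffolds was 7.77 in both arrays numbered 1 and between 7.99 and 8.19 in the other 6, and that of the adhesion genes was 7.62 in both and between 7.85 and 8.07 in the others. Neuron markers were at 9.04 and 9.09 in the arrays numbered 1 and between 9.41 and 9.85 in the others, and astrocyte markers at 9.51 and 9.30 against 8.47 to 8.98. Vascular and meningeal markers were at 5.05 to 5.21 in the arrays numbered 1 and 2 and at 4.47 to 4.65 in those numbered 3 and 4. Their part in the result was not tested. Within the numbers, scaffold medians of the KCl minus untreated differences were 0.02, -0.14, -0.02 and -0.01 for numbers 1 to 4, and adhesion medians 0.08, -0.06, -0.11 and 0.04.

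**Figure D4:**
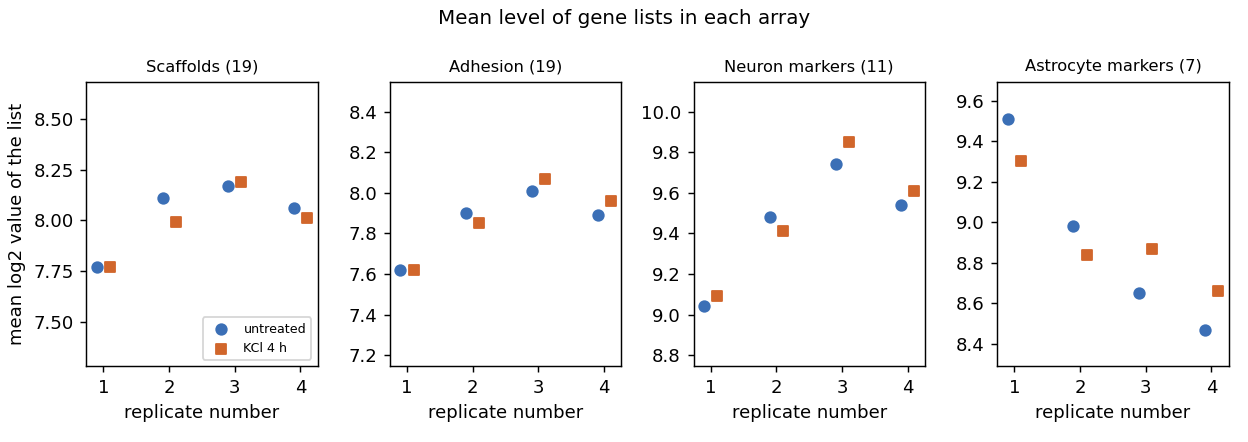
Mean log2 value of scaffold genes, adhesion genes, neuron markers and astrocyte markers on each array (vertical axis) by replicate number (horizontal axis), with circles for untreated and squares for KCl. The arrays numbered 1 have the lowest scaffold (7.77), adhesion (7.62) and neuron marker (9.04 and 9.09) values and the highest astrocyte marker values (9.51 and 9.30).

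Other genes of the same compartments were counted from lists of 38 further postsynaptic density genes and 53 further adhesion genes. Of the 35 postsynaptic genes measured, 1 rose and none fell, with a median log2 change of 0.02. That is 2.86%, against 2.36% of all genes and 4.46% of genes brighter than the median gene. The gene that rose was Homer1, whose short activity-induced form lacks the crosslinking end of Homer2 and Homer3. Homer1 was at 7.99, 7.28, 8.22 and 8.12 untreated and at 8.81, 9.94, 9.09 and 9.69 after KCl, with no overlap, a log2 change of 1.48 (SE 0.292) and an adjusted p of 0.0401 without and 0.0481 with the block (limma). The adjusted p of Homer1 ranged from 0.0306 to 0.118 with single arrays left out and passed in 1 of 8 such fits. Which forms of Homer1 the probe set detects was not determined here. Of the 49 adhesion genes measured, none passed with limma, and the median log2 change was -0.05. An unadjusted p under 0.05 (limma) was found for 5 of the 35 (14.3%) and 5 of the 49 (10.2%). The shares were 13.0% of all genes and 21.1% of brighter genes, to which 34 of the 35 and 44 of the 49 belong. Groups did not overlap in 3 of the 35 (8.57%) and in 1 of the 49 (2.04%), beside 8.16% of all genes and 12.4% of brighter genes.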

How the data were processed

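Total RNA from 4 untreated and 4 KCl cultures was labelled with an Affymetrix WT kit, according to the labels. Each deposited value is a log2 signal of 1 probe set; RMA and Partek are named, with no version, per the submitters' processing notes. RMA compresses differences near background, so changes of dim genes are understated. Of 34472 probe sets, 23521 had 1 platform symbol, 1814 several and 9137 none, which left 22180 genes after the brightest probe set per gene was taken. A second probe set existed for Lrrtm4, Nrxn2 and Shank3. By RefSeq positions, 10 of the 38 genes overlap another protein-coding gene and 5 of them lie inside one; probes could share signal there. No column belonged to other samples (0).

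Groups came from the titles. limma 3.58.1 in R 4.3.3 (lmFit, eBayes, two-sided, group as single term) was run on all 22180 genes, with Benjamini-Hochberg adjustment and a threshold of 0.05; SEs are moderated. Titles give both groups replicate numbers 1 to 4. Correlations of deviations from group means, across all genes, were 0.64, 0.23, 0.41 and 0.37 for same-numbered arrays, against 0.3 at most for other pairs. Across the scaffold and adhesion genes they were 0.59, 0.16, 0.24 and 0.18, against 0.41 at most for other pairs. In those genes only number 1 exceeded the other pairs, so pairing by numbers 2, 3 and 4 is not shown there. The numbers were taken to pair the arrays for the block, although no shared litter or day is named. Values in every array are given for genes past the threshold with or without the block, with groups that do not overlap, or among the 4 smallest p of their class. Slitrk2, Slitrk5, Lrrtm1 and Dlg4, and in part Shank1 and Slitrk1, were added after their values were seen. The genes and lists were chosen with earlier results of these data known. Medians describe a class and carry no test. Alternatives were the block, repeated quantile normalization, median centring, brighter genes, the mean of all probe sets, all probe sets, trended robust eBayes, no moderation, array weights, each array left out, and both arrays numbered 1 left out; the last together with the block was chosen after seeing the data. Promoter windows came from RefSeq (GRCm38.p6), whose relation to the array annotation is not given here. The fit was tested on simulated data. Figures used matplotlib 3.10.9 in Python 3.11.15.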

Additional observations from a re-analysis of the deposited data

Results flagged for a closer look

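Among 76 groups of 4 arrays (38 genes in 2 groups), 3 held an array far from the other 3, where chance gives about 1 in 20. For Dlgap1, KCl replicate 1 was at 9.30 and the other KCl arrays at 9.86 to 9.93, a gap of 0.899 of the group's range. For Homer2, untreated replicate 1 was at 6.69 and the others at 7.58 to 7.71, a gap of 0.866. For Lrrtm4, untreated replicate 4 was at 6.54 and the others at 6.2 to 6.25, a gap of 0.854.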

How the results depend on the processing

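No gene of the 38 that passed the test changed its sign under any alternative run. With the replicate block, 539 genes were called higher and 446 lower, against 297 and 227 without it, and 2 of the 38 genes were called higher and 1 lower, against 1 and 0. The number of the 38 called higher was 0 with quantile normalization repeated and without moderation, and 2 among brighter genes, where 37 of the 38 were tested. The number called lower was 1, Slitrk3 each time, with quantile normalization repeated, among brighter genes, with trended robust eBayes, with array weights and without both arrays numbered 1, with or without the block. Over all genes, no moderation gave 89 higher and 40 lower, and trended robust eBayes 150 lower. With single arrays left out, 118 to 254 genes were called higher and 68 to 247 lower, 0 to 1 of the 38 were called higher and 0 to 1 lower, and the medians ran from -0.11 to 0.03 for scaffolds and from -0.14 to 0.06 for adhesion genes. Lrrtm2 lost its call when untreated replicate 1, 2, 3 or 4 or KCl replicate 2, 3 or 4 was dropped, with repeated quantile normalization (adjusted p = 0.0582, limma) and without moderation (adjusted p = 0.141). The causes were not tested. Amigo3 did not pass with the block once both arrays numbered 1 were left out (adjusted p = 0.0567, limma). The block changed no call other than those of Slitrk3 and Amigo3 among the 38. Signal over background was not assessed.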
